A study of Mus musculus with 11 samples.

Results

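T-box genes encode transcription factors that share a DNA-binding domain, the T-box. The 9 genes described here, Tbx1, Tbx2, Tbx4, Tbx5, Tbx6, Tbx15, Tbx18, Tbx20 and Eomes, were taken by name, each as its annotated gene body plus 10 kb on both sides in the mouse build GRCm38/mm10. They are 9 of 21627 protein-coding gene windows on chromosomes 1 to 19 and X, span 525.3 kb and hold 7948 CpGs, 0.0372% of the CpGs of those chromosomes. The genes were chosen with earlier results of these data known. Differences from all gene windows and from the rest of the family cannot be separated from that choice. The cells were mouse E14 embryonic stem cells of 129/Ola background, grown in serum with leukemia inhibitory factor (LIF), which keeps them undifferentiated. The method was CUT&Tag-BS, in which an antibody brings the transposase pA-Tn5 to chromatin carrying a histone mark and the cut fragments, joined to methylated adapters, are then bisulfite converted, so that mark and DNA methylation are read on the same fragments. The study set out to benchmark this method.

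Every group was the same untreated cell line, and the groups differed in antibody, cell number and bisulfite treatment. H3K4me1, found at enhancers and beside promoters, was profiled with bisulfite from 250000 cells in run 1 (35-bp reads) and run 2 (75-bp reads), and so was H3K9me3, a mark of heterochromatin. H3K27me3, the mark laid down by Polycomb repressive complex 2 (PRC2), was profiled with bisulfite from 4000, 20000, 100000 and 250000 cells, 1 library each. Each mark also had 1 control from 250000 cells prepared without bisulfite. A bisulfite library held from 378056 CpG calls (4000 cells) to 37177077 (250000 cells, H3K27me3), with 4917718 and 9690770 for H3K4me1 run 1 and run 2 and 2012835 and 6355757 for those of H3K9me3. The runs of a mark matched each other more closely than calls within a run: of T-box CpGs called exactly 1 time in each H3K4me1 run, 97.1% of 513 had the same state in both, against 83.6% of 670 CpGs called 2 times within run 2, and for H3K9me3 the values were 99.0% of 104 and 78.85% of 52. The labels do not say whether the runs are 1 library. On these values they were counted as 1 library, so no group had biological replicates, and every test below compares libraries, not marks. As a check of the cells by their chromatin, all 10 of 10 embryonic stem cell genes listed (Pou5f1, Sox2, Nanog and others) had an H3K4me1 peak and 1, Esrrb, had an H3K27me3 peak, whereas of 8 genes listed for other cell types (Sox17, Foxa2, Pax6 and others) 7 had an H3K4me1 peak and 8 an H3K27me3 peak. Of all gene windows, 51.4% had an H3K4me1 peak and 47.5% an H3K27me3 peak. By the presence of a peak, the lists thus differed in H3K27me3 and little in H3K4me1. They differed more in the length of H3K4me1 peaks per window. All the stem cell genes except Klf4 (1090 bp) and Zfp42 (6167 bp) had more than 6239 bp. Of the genes listed for other cell types, only Pax6 (23782 bp) did, and Foxa2 came next with 6239 bp. The difference in length was not tested. No RNA was measured.

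In embryonic stem cells, many developmental transcription factor genes are held silent by Polycomb: PRC2 methylates lysine 27 of histone H3 over broad domains centred on CpG islands, and the islands themselves are kept free of DNA methylation. Several T-box genes, though not all of the family, are well-known examples of this class. Tbx1 acts in the pharyngeal arches and the cardiac outflow tract, Tbx2 represses chamber genes in the atrioventricular canal, Tbx5 acts in the forelimb and the heart, Tbx18 in the epicardium and the sinus node, and Tbx20 in the developing heart. Tbx4 acts in the hindlimb and the lung, and Tbx15 in the skeleton and the dermis. Eomes acts in the trophoblast and in mesoderm and endoderm formation at gastrulation, and Tbx6 in paraxial mesoderm.

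In RefSeq positions on GRCm38, the gene bodies are chr16:18580979-18590671 (Tbx1, 9.69 kb), chr11:85832615-85841948 (Tbx2, 9.33 kb), chr5:119796514-119885220 (Tbx5, 88.7 kb), chr9:87702800-87731260 (Tbx18, 28.5 kb) and chr9:24720812-24774303 (Tbx20, 53.5 kb). Tbx4 (29.7 kb) lies at chr11:85886367-85916097, on the chromosome of Tbx2 and with no shared window, and Tbx15 (113.9 kb) at chr3:99240348-99354260. Eomes (7.95 kb) lies at chr9:118478186-118486132 and Tbx6 (4.07 kb) at chr7:126781483-126785548. CpG density per window ran from 9.68 per kb at Tbx15 to 31.5 per kb at Tbx2. The Tbx4 window holds no other annotated gene, the Tbx2 window holds Bcas3 and 2610027K06Rik, and the Tbx6 window holds 4 other genes, Gdpd3, Ypel3, Ppp4c and Aldoa. The other 6 windows hold from 1 to 3 further annotated genes each, all with model names that begin with Gm.

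Promoter sequences show the CpGs on which the methylation values of a gene start rest. The RefSeq promoter table for GRCm38.p6 matched 6 of the 9 genes, with 7 transcript starts (Tbx1 has 2). The 250 bases before the start are given for 5 of them, 5′ to 3′ on the strand of the gene, with each CpG in capitals. They were chosen to show the least methylated starts (Tbx20, Tbx18, Eomes), a start with CpGs of mixed level (the second of Tbx1) and the most methylated start inside a peak (Tbx4). The stretches are chr9:24774304-24774553 (minus strand) for Tbx20, chr9:87731261-87731510 (minus strand) for Tbx18, chr9:118477939-118478188 (plus strand) for Eomes, chr16:18590672-18590921 (minus strand) for the second start of Tbx1 and chr11:85896515-85896764 (plus strand) for Tbx4. The Tbx4 start is internal: the annotated gene begins at position 85886367 of the same chromosome.
Tbx20: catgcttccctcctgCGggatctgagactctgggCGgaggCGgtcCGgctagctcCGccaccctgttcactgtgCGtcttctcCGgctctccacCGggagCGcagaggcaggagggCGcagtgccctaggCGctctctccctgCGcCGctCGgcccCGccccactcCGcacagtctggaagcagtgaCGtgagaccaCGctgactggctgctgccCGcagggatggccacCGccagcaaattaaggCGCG
Tbx18: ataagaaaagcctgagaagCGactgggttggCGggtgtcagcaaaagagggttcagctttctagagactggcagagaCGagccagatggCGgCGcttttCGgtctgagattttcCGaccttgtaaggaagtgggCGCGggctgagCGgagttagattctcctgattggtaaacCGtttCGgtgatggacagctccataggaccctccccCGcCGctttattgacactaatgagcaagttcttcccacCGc
Eomes: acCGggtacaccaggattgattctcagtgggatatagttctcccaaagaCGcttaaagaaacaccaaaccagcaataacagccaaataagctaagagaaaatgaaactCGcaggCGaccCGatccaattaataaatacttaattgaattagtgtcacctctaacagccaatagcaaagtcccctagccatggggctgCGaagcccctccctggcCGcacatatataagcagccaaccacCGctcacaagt
Tbx1 start 2: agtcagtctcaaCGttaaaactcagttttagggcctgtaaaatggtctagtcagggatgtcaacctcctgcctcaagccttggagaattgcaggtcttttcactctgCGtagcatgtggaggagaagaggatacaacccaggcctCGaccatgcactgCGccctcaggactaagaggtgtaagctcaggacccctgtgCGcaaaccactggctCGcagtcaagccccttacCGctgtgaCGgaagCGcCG
Tbx4: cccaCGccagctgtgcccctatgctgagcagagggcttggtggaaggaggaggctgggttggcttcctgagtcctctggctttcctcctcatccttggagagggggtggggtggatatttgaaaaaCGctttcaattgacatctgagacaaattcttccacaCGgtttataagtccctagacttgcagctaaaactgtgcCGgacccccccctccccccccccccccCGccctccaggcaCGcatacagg

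In the H3K27me3 library from 250000 cells, the Tbx20 stretch, with 22 CpGs, had 27 methylated of 3504 calls (0.771%, Wilson 95% interval 0.530 to 1.119). Its 22 CpGs ranged from 0 to 2.01%, and H3K4me1 run 2 had 0 of 152 calls methylated there, which allows a level of up to 1.97%. The Tbx18 stretch, with 15 CpGs, had 9 of 1254 calls methylated (0.718%, 0.378 to 1.36), and 0 of 44 in H3K4me1 run 2, which allows up to 6.82%. The Eomes stretch, with 8 CpGs, had 6 of 289 methylated (2.08%, 0.955 to 4.46) and 0 of 31 in H3K4me1 run 2, which allows up to 9.68%. These 3 starts were thus nearly free of methylation on fragments carrying H3K27me3. The second Tbx1 start stood higher, with 172 of 1404 calls methylated (12.3%, 10.6 to 14.1), and its 10 CpGs ranged from 0 to 59.2%. The first Tbx1 start had 137 of 1363 methylated (10.1%, 8.57 to 11.8). The internal Tbx4 start went the other way, with 88 of 135 calls methylated (65.2%, 56.8 to 72.7) at its 6 CpGs. The Tbx6 start had 2 calls in that library, both methylated, and 0 of 5 and 0 of 2 calls were methylated in H3K4me1 run 2 and run 1; it lies in no H3K27me3 peak. The T-box consensus AGGTGTGA, searched on both strands, was in 0 of the 7 promoter windows of 300 bases, and 1.28% of all 32619 windows held it. Its core AGGTGT, which is part of it, was in 1 of 7, the second start of Tbx1, against 13.8% of all windows.

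Peaks were read from the deposited lists, which give positions without scores. In the unified list of a mark, which merges its libraries, an H3K27me3 peak overlapped 8 of the 9 windows by at least 1 bp, all but Tbx6, and 47.5% of all protein-coding gene windows did so. At least 25% of the window lay under H3K27me3 peaks for the same 8 genes, against 14.8% of all windows. H3K27me3 peaks covered 54.05% of the bases of the 9 windows and 7.35% of the bases of all gene windows. The domains were broad. A single peak of 53.0 kb at chr11:85874615-85927662 contained the whole Tbx4 window, and 1 of 66.6 kb at chr16:18573304-18639946 ran through Tbx1 and past its window. Tbx2 lay in a peak of 27.2 kb (chr11:85822890-85850052) and Eomes in 1 of 25.7 kb (chr9:118465574-118491234). Tbx5 carried 6 peaks, the widest 36.5 kb (chr5:119813036-119849509). In Tbx15, Tbx18 and Tbx20, by contrast, the peak covered 1 end of the gene: 41.5 kb around the lower-coordinate end of Tbx15 (chr3:99230981-99272444), and 31.0 kb and 20.01 kb around the transcript starts of Tbx18 (chr9:87721246-87752241) and Tbx20 (chr9:24764352-24784365). The median H3K27me3 peak of the whole list was 2.96 kb wide.

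**Figure D1:**
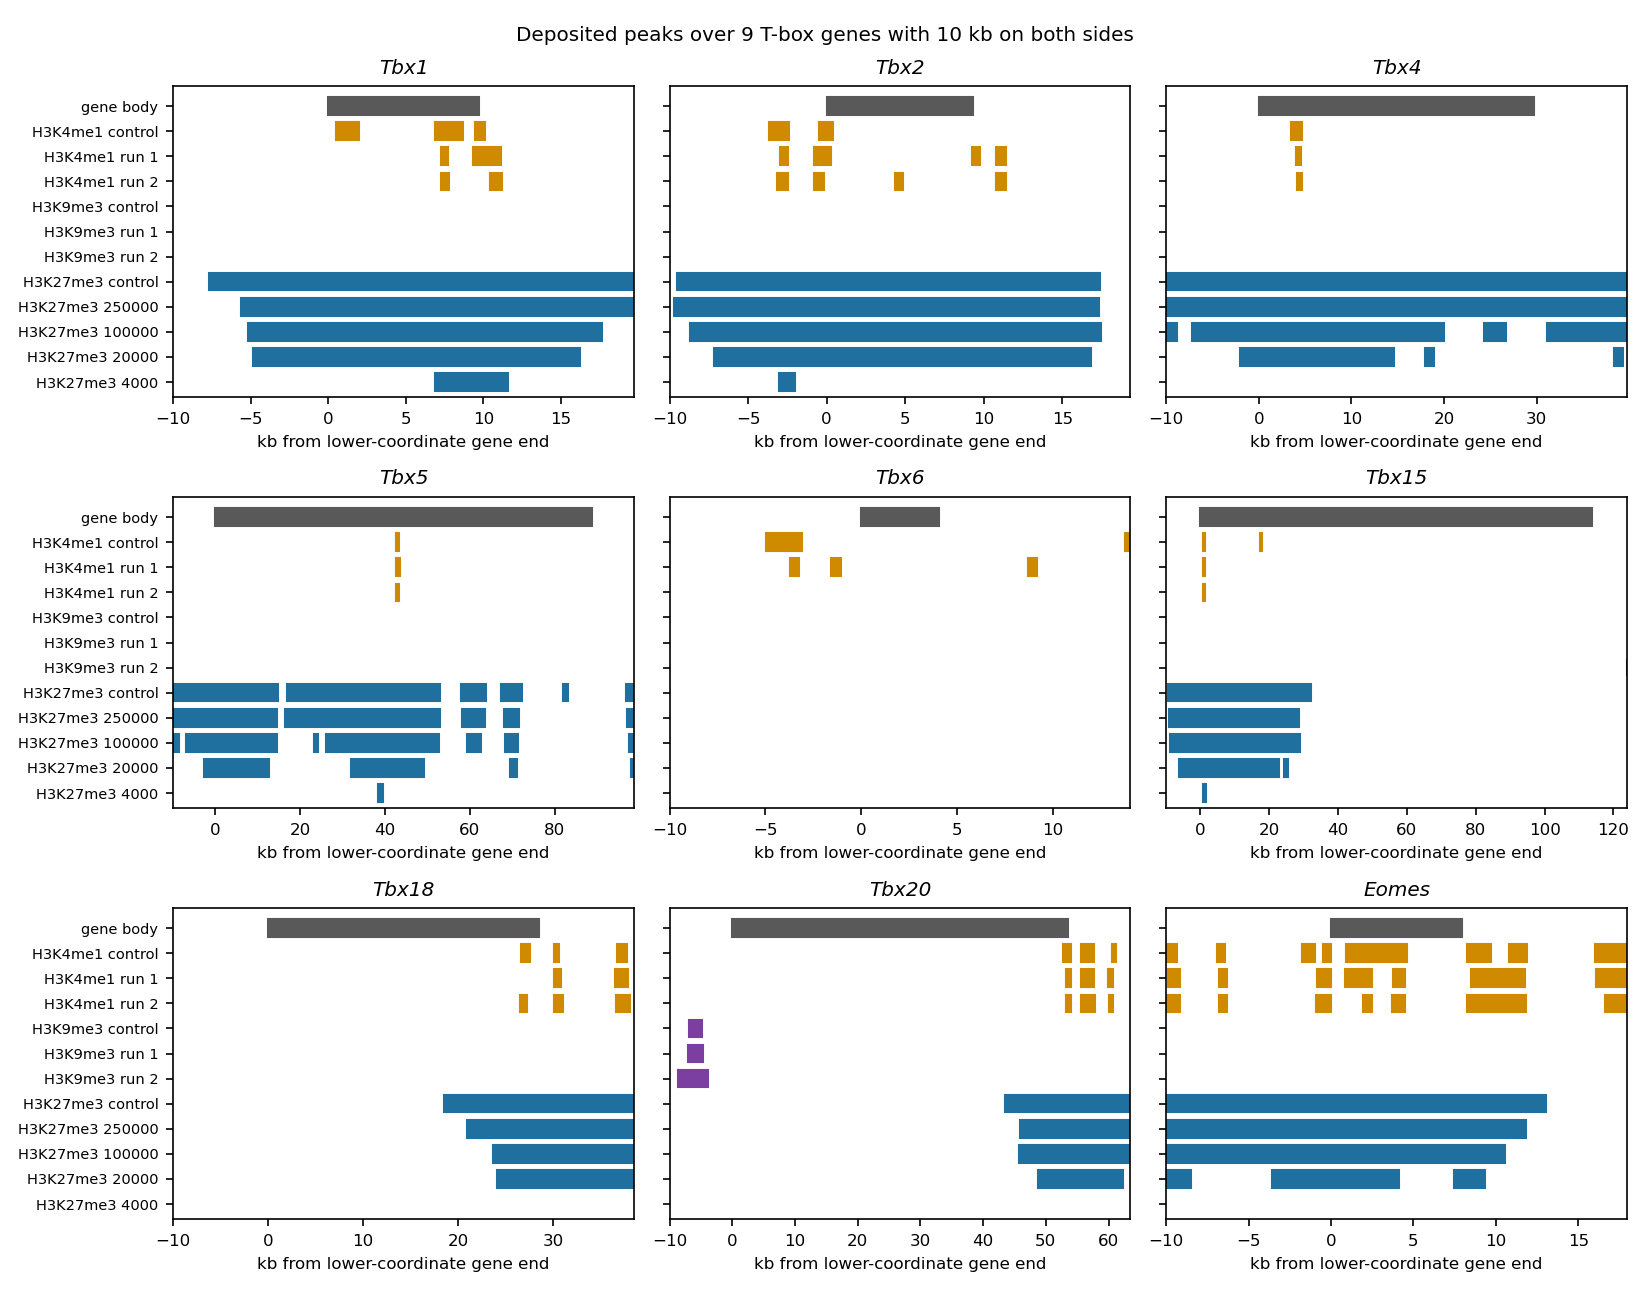
Deposited peaks of each library over the 9 gene windows; the x axis is the distance in kb from the lower-coordinate end of the gene, and each row is 1 library (gold H3K4me1, purple H3K9me3, blue H3K27me3; numbers are cells). H3K27me3 fills most of 5 windows and 1 end of the Tbx15, Tbx18 and Tbx20 windows, is missing at Tbx6, and shrinks from 250000 to 4000 cells.

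H3K4me1 peaks overlapped 9 of 9 windows, against 51.4% of all gene windows, and 8 of 9 windows held peaks of both H3K4me1 and H3K27me3, against 30.4%. The H3K4me1 peaks were short next to the Polycomb domains, 29 peaks with 37.1 kb in all. Of these, 24 overlapped an H3K27me3 peak, and 86.2% of their bases lay under one, against 15.4% of the H3K4me1 peak bases in all gene windows (bases in overlapping windows counted for each gene). These shares also depend on H3K27me3 coverage, which was 54.05% of the bases of the 9 windows and 7.35% in all gene windows. In 7 genes, Tbx1, Tbx2, Tbx4, Tbx5, Tbx15, Tbx18 and Tbx20, 100% of the H3K4me1 peak bases lay under H3K27me3 peaks. At Tbx4 this was fixed in advance, since H3K27me3 covered 100% of the window, and it covered 92.2% at Tbx1 and 92.6% at Tbx2. Eomes stood out by the amount of H3K4me1, with 7 peaks covering 12.6 kb of its 27.9 kb window and 84.9% of them under H3K27me3. Tbx6 had 4 H3K4me1 peaks with 3.21 kb, none of them under H3K27me3, and run 2 of H3K4me1 on its own had no peak there. All 4 lay in the flanks, outside the gene body, in a window that also holds 4 other genes. Without flanks, H3K4me1 peaks overlapped 8 of the 9 genes. The marks were mapped in separate libraries, so these peaks do not show that both marks were on the same nucleosomes or in the same cells.

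H3K9me3 peaks overlapped 2 of 9 windows, against 21.2% of all gene windows. At Tbx15 the overlap was 85 bp at the far edge of the window. At Tbx20 a peak of 4.71 kb (chr9:24712204-24716917) lay within the 10 kb flank on the low-coordinate side, at the other end of the gene from its H3K27me3 domain. Its 47 CpGs had 104 of 119 calls methylated in H3K9me3 run 2 (87.4%, 80.2 to 92.2), 30 of 32 in run 1 (93.8%, 79.8 to 98.3) and 2 of 2 in the H3K27me3 library from 250000 cells. The Tbx20 window thus held a highly methylated H3K9me3 peak and a Polycomb domain with a nearly unmethylated start.

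Call density, the calls per CpG in a window relative to the calls per CpG of the genome in the same library, stands in for the strength of a mark because the peaks have no scores. In the H3K27me3 libraries from 4000, 20000, 100000 and 250000 cells the 9 windows together had 13.6, 15.0, 16.6 and 18.7 times the genome's density, where the median gene window had 0.900, 0.349, 0.290 and 0.270 times. At 250000 cells the 8 genes with H3K27me3 peaks ranged from 11.6 times (Eomes) to 29.3 times (Tbx1), and Tbx6 had 0.118 times. H3K4me1 run 2 gave 2.40 times over the 9 windows against a median of 0.770, with Eomes highest at 6.60 and Tbx5 lowest at 0.961. H3K9me3 run 2 gave 0.333 times against a median of 0.334, from 0.0405 at Tbx6 to 0.964 at Tbx20. The T-box windows therefore took a large share of Polycomb fragments. Their pooled H3K9me3 density was near that of the median gene window, but only Tbx20 (0.964) and Tbx15 (0.622) lay above that median. The other windows lay under it, from 0.0405 (Tbx6) to 0.312 (Eomes). The T-box windows received 258838 of the calls of the 250000-cell H3K27me3 library (0.697%) and 781 of those of H3K9me3 run 2 (0.0124%), so H3K9me3 values per gene rest on few calls.

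The methylation level is the percentage of calls that were methylated, pooled over a window. Over the 9 windows it was 16.2% in H3K4me1 run 1 and 15.3% in run 2 (mean 15.8%, SD between runs 0.698), 64.0% in H3K9me3 run 1 and 65.3% in run 2 (mean 64.7%, SD 0.898), and 21.3%, 19.8%, 20.3% and 20.2% in the H3K27me3 libraries of rising cell number. The median gene window had 32.4% in H3K4me1 run 2, 73.9% in H3K9me3 run 2 and 46.0% in H3K27me3 from 250000 cells, and every pooled T-box level lay below the median of its library. These levels weight each CpG by its calls. Taking the mean of single-CpG levels in place of pooled calls gave 40.55% for the 250000-cell H3K27me3 library. CpGs with more calls were less methylated: inside the H3K27me3 peaks, CpGs under 20% had a mean of 62.7 calls and those over 80% a mean of 28.8. In bulk cells a level between 0 and 100% does not tell whether some cells or some alleles are methylated. Intervals cover counting error only, since calls on 1 fragment and amplified copies are not independent.

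The heart and pharyngeal genes had low levels in the H3K4me1 and H3K27me3 libraries, except Tbx5. Tbx20, a regulator of the developing myocardium, had 9.49% in H3K4me1 run 1 and 9.98% in run 2, 70.4% in H3K9me3 run 1 and 75.6% in run 2, and 17.8%, 15.8%, 14.4% and 14.8% in H3K27me3 from 4000, 20000, 100000 and 250000 cells. Tbx18, a marker of the epicardium and sinus node, had 11.8% and 11.6%, then 35.7% and 63.9%, then 10.7%, 8.68%, 9.93% and 9.51% in the same order. In both genes the H3K9me3 values stood above all other libraries; the 35.7% rests on 14 calls. The H3K27me3 values stood above both H3K4me1 values in all 4 libraries at Tbx20 and below both at Tbx18. Tbx1, a gene of the pharyngeal arches, had 10.4% and 7.84%, then 33.3% and 20%, then 11.1%, 15.9%, 16.2% and 16.3%. Tbx2, the atrioventricular canal repressor, had 10.8% and 10.8%, then 33.3% and 22.9%, then 17.2%, 12.3%, 14.0% and 14.1%. Their H3K9me3 values rest on 9 to 48 calls, and their intervals in run 2 reach down to 10.5% and 13.3%. Tbx5, required for forelimb and heart, had 27.7% and 27.8%, then 67.9% and 75.5%, then 35.5%, 30.0%, 31.7% and 30.9%, so its H3K4me1 and H3K27me3 levels were above those of the other 4 genes of this set in every one of those libraries.

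Of the limb and skeletal genes, Tbx4, which acts in hindlimb and lung, had the highest H3K27me3 levels of the 8 genes with a Polycomb domain: 44.7%, 39.1%, 36.5% and 35.6% from 4000 to 250000 cells, with 35.0% and 31.4% in H3K4me1 and 57.1% and 66.7% in H3K9me3. Tbx15, a skeletal and dermal regulator, had 16.3%, 19.5%, 19.6% and 19.6% in H3K27me3, 18.4% and 15.6% in H3K4me1, and 73.2% and 76.5% in H3K9me3. Of the early mesoderm genes, Eomes had 15.7% and 14.7% in H3K4me1, 50.0% (10 calls) and 28.8% (59 calls) in H3K9me3, and 18.3%, 14.2%, 15.3% and 15.4% in H3K27me3. Tbx6 had 32.5% and 29.7% in H3K4me1. Its other values rest on few calls: 4 of 5 methylated in H3K9me3 run 2 and 0 calls in run 1, and 0, 20, 33 and 86 calls in H3K27me3 of rising cell number, with 10%, 36.4% and 50.0% methylated where there were any. With 4 other genes in its window, these calls are not those of Tbx6 alone.

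**Figure D2:**
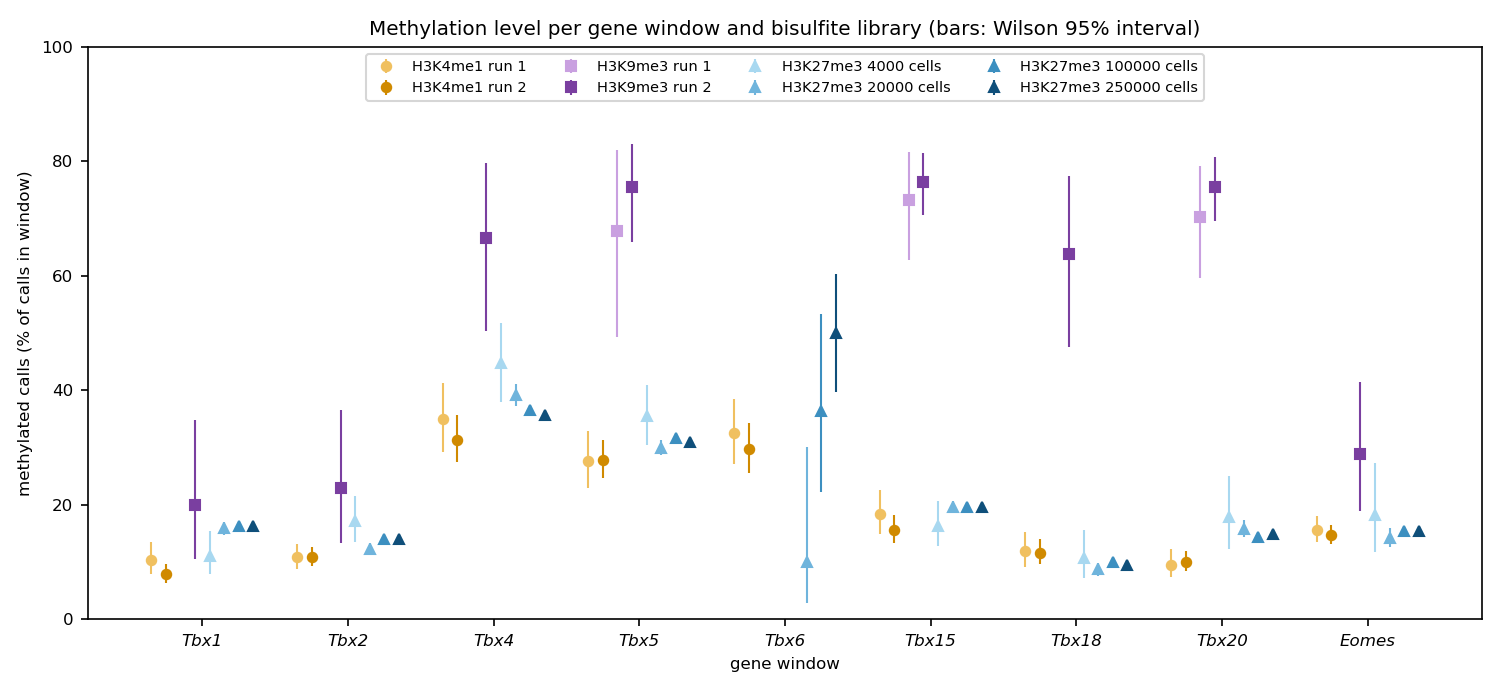
Methylation level (percent of calls methylated) of each gene window in each bisulfite library, with Wilson 95% intervals; values on fewer than 20 calls are not drawn. H3K4me1 (gold) and H3K27me3 (blue) lie from 7.84 to 44.7% outside Tbx6, and H3K9me3 (purple) lies from 63.9 to 76.5% in run 2 at Tbx4, Tbx5, Tbx15, Tbx18 and Tbx20 and from 20 to 28.8% at Tbx1, Tbx2 and Eomes.

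Pooled over the windows, calls inside the Polycomb domains were less methylated than calls outside them, and levels also varied within the domains. The Tbx4 window had 0 CpGs outside its H3K27me3 peak, and the Tbx1 window had 13 calls outside in the 250000-cell library. In the 250000-cell H3K27me3 library, CpGs inside H3K27me3 peaks had 19.9% of 257548 calls methylated, and those outside had 79.5% of 1290 calls. The same split gave 20.03% and 79.6% at 100000 cells, 19.6% and 75.8% at 20000 cells, 14.0% and 33.0% in H3K4me1 run 2, and 36.6% and 87.3% in H3K9me3 run 2. The split pools the windows: 427 of the 570 outside calls in H3K4me1 run 2 came from Tbx6 (29.7%), which has no H3K27me3 peak. Inside H3K4me1 peaks the level was lower again: 6.60% in the 250000-cell H3K27me3 library, 6.44% at 100000 and at 20000 cells, 7.76% at 4000 cells, 9.97% in H3K4me1 run 2 and 13.3% of 150 calls in H3K9me3 run 2. In every one of these libraries the calls inside peaks were less methylated than those outside. Per gene, the 250000-cell level inside H3K4me1 peaks ranged from 4.72% at Eomes and 4.73% at Tbx18 to 12.1% at Tbx5 and 17.6% at Tbx4, among the 8 genes with a Polycomb domain.

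Bins of 1 kb show low and high levels along the genes, also inside the domains. Of 279 bins with at least 20 calls in the 250000-cell library, 63 were under 20% methylated, 127 from 20 to 80% and 89 over 80%. The bins under 20% held a median of 40 CpGs and the bins over 80% a median of 11, with 59.2 and 5.80 calls per CpG. At Eomes, 4 adjacent bins around the start were low (11.7%, 2.85%, 0.157% and 2.59%), 3 bins from 5 to 8 kb past the lower-coordinate end stood at 75.0%, 83.2% and 84.5%, and a second run of 4 low bins lay past the far end of the gene (5.84%, 2.54%, 1.53% and 2.50%). At Tbx1 the bin 1 to 2 kb from the lower-coordinate end, with 129 CpGs, was 0.993% methylated. Of the 26 bins of its window, 12 were over 80%, and these lay inside the same H3K27me3 peak. Tbx2 had the longest low stretch, 5 adjacent bins under 20%, and 14 low bins of 28. Tbx4 had only 2 low bins of 49, at 12.3% and 12.2%, and 25 over 80%, although its whole window lay under H3K27me3. Tbx5 had 6 low bins of 78, and the lowest lay 7 to 8 kb from the lower-coordinate end.

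**Figure D3:**
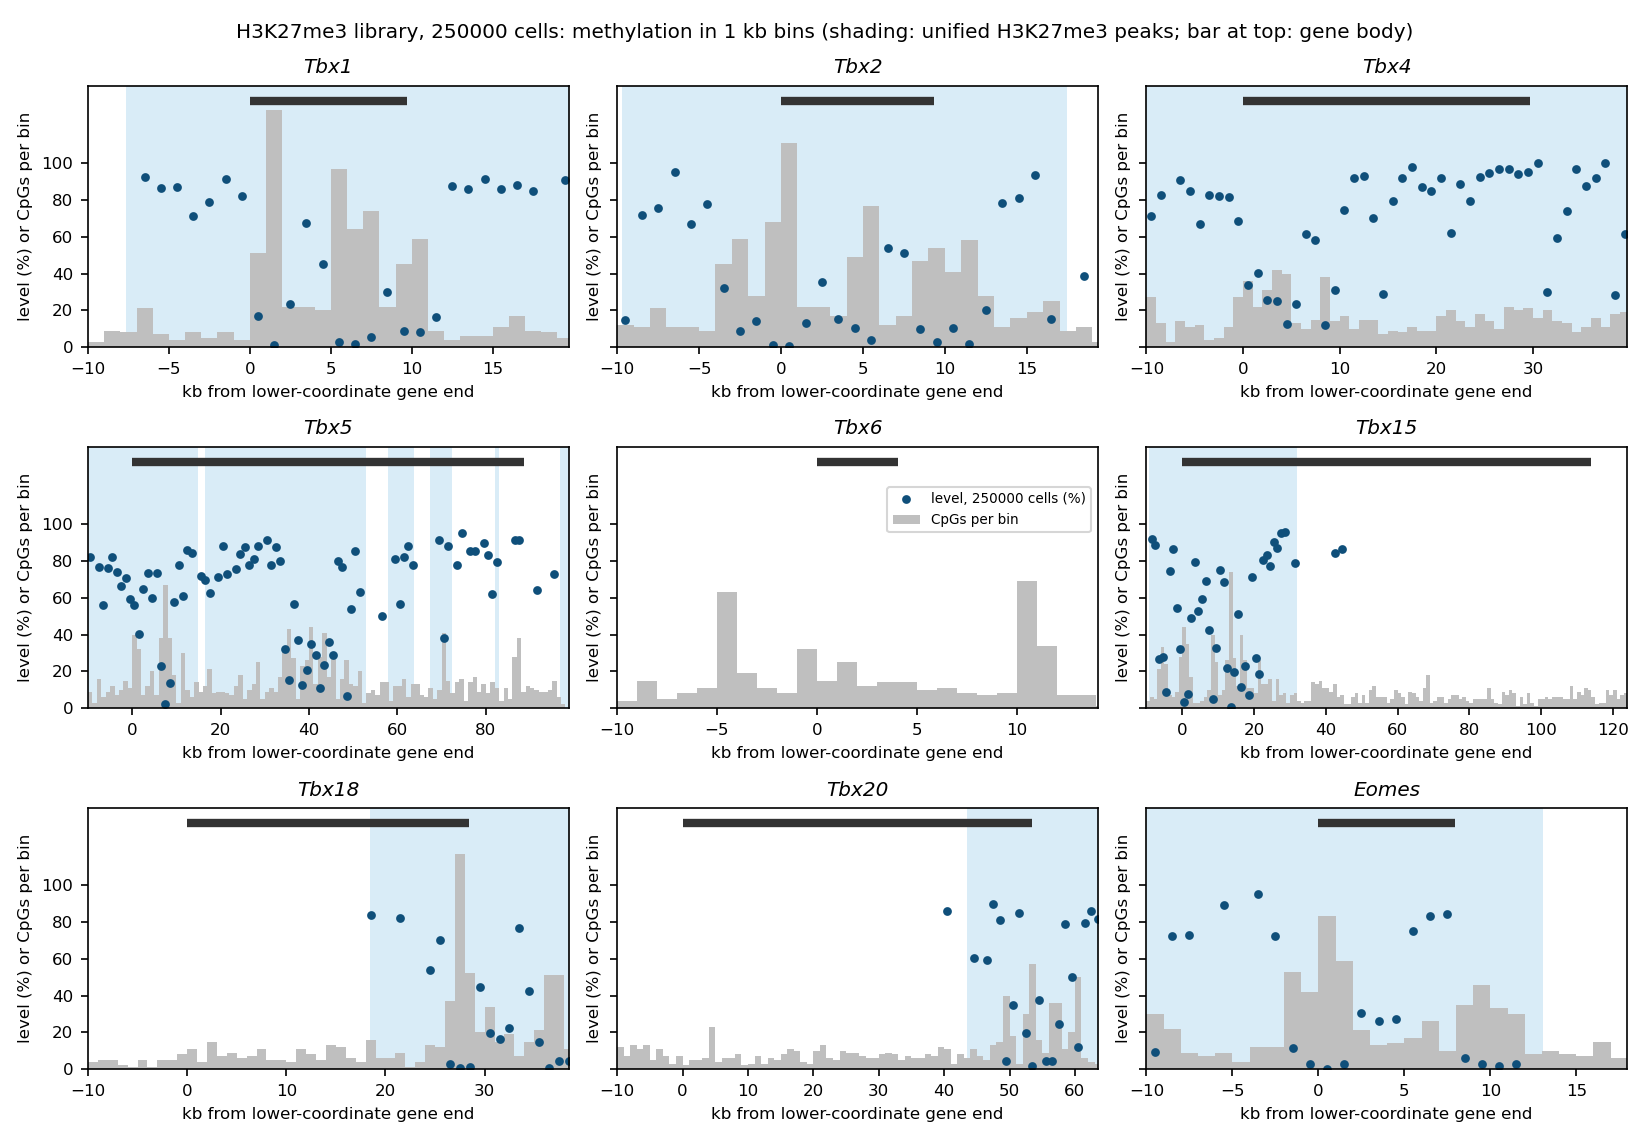
Methylation level (points, percent) and number of CpGs (grey bars) in 1 kb bins of the 250000-cell H3K27me3 library, against distance in kb from the lower-coordinate end of each gene; blue shading marks unified H3K27me3 peaks, the dark bar the gene body, and bins under 20 calls have no point. Low points sit on the bins richest in CpGs, with high points between and beyond them, and Tbx6 has no bin with enough calls.

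Single CpGs inside the domains fell into the same classes. Of 4456 CpGs with at least 10 calls inside H3K27me3 peaks at 250000 cells, 62.5% were under 20% methylated, 27.6% between 20 and 80%, and 9.92% over 80%, against 65.3%, 20.2% and 14.4% of the 719731 such CpGs in all gene windows. At 100000 cells the T-box shares were 64.9%, 27.7% and 7.47% of 4031. The genes differed widely among themselves. At Tbx18, 83.8% of 439 CpGs were under 20% and 14.6% intermediate. At Tbx4, 35.0% of 383 were under 20%, 42.6% intermediate and 22.5% over 80%, and at Tbx5 the shares were 36.2%, 49.6% and 14.3% of 779. The intermediate share at Tbx4 and Tbx5 was also the highest of the 8 genes at 100000 cells, with 45.6% and 52.2%.

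The first comparison between libraries set H3K27me3 from 250000 cells against H3K4me1 run 2, window by window, with Fisher's exact test over 16570 genes with at least 20 calls in each library and Benjamini-Hochberg adjustment over all of them. A window was called when the adjusted p was under 0.05 and the difference at least 20 percentage points. Of the 9 T-box windows, 1 was called higher in H3K27me3 and 0 lower, against 26.6% and 2.63% of all genes tested. The call was Tbx6, by 20.3 points (50.0% against 29.7%, adjusted p = 0.000927, Fisher's exact test). Tbx1 (8.42 points, adjusted p = 1.99e-13), Tbx20 (4.86, 1.12e-05), Tbx15 (3.98, 0.00708) and Tbx2 (3.24, 0.00127) were higher with an adjusted p under 0.05 but under 20 points, and Tbx4 (4.25, 0.0772), Tbx5 (3.06, 0.119), Eomes (0.735, 0.487) and Tbx18 (-2.12, 0.0672) did not pass Fisher's exact test at 0.05. The median difference was 3.98 points over the 9 windows and 8.53 over all genes tested. The Tbx6 call was not made with H3K4me1 run 1, where the difference was 17.5 points (adjusted p = 0.0096, Fisher's exact test) and so fell short of the 20 points only. Nor was it made with the gene body alone (87.5% of 24 calls against 77.3% of 22), or at the 46 CpGs called in both libraries, where 47 and 114 calls gave 42.6% and 32.5%. At such shared CpGs the difference turned negative in 7 of the 9 windows, from -0.31 points at Tbx20 to -9.18 at Tbx5, and Tbx1 and Tbx6 stayed positive; the windows called were 0 in either direction.

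H3K9me3 run 2 against H3K4me1 run 2 could be tested in 8 windows, since Tbx6 had 5 calls in H3K9me3. Of these 8, 5 were called higher in H3K9me3 and 0 lower, against 67.1% and 0.743% of 13330 genes. The calls were Tbx20 (75.6% against 9.98%, 65.6 points, adjusted p = 2.79e-87), Tbx15 (60.9 points, 4.41e-68), Tbx18 (52.3, 4.16e-12), Tbx5 (47.7, 2.95e-18) and Tbx4 (35.3, 6.77e-05), all by Fisher's exact test. Eomes (14.1 points, adjusted p = 0.008), Tbx1 (12.2, 0.0197) and Tbx2 (12.1, 0.0241) had smaller differences in the same exact test. The share of T-box windows called was close to that of all genes, and the median difference was 41.5 points against 30.4. H3K27me3 from 250000 cells was called lower than H3K9me3 run 2 in the same 5 windows of 8, against 40.2% of 15375 genes called lower and 3.58% higher, and in 0 higher. The differences ran from -31.1 points (Tbx4, adjusted p = 0.000475) to -60.7 (Tbx20, 1.52e-89) in Fisher's exact test, with medians of -37.8 over the 8 and -13.7 over all genes. These comparisons share libraries, and their calls are not independent. At CpGs called in both H3K9me3 and H3K4me1, 5 of the 8 genes could be tested and 1 was called.

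The libraries of different marks read different CpGs of the same window, so the H3K27me3 level was also taken at the CpGs and calls of the other library, an alternative chosen after the data were seen. At the 3036 CpGs shared with H3K4me1 run 2, weighted by its 8236 calls, the 250000-cell H3K27me3 library stood at 11.2% and H3K4me1 at 14.4%, 3.22 points apart, where the unmatched levels were 20.2% and 15.3%. At matched calls H3K4me1 stood above H3K27me3 in all 9 windows, from 0.319 points at Tbx1 to 8.96 at Tbx5. At Tbx6 H3K4me1 stood 6.14 points above H3K27me3 at matched calls. At the 417 CpGs shared with H3K9me3 run 2 (452 calls), H3K9me3 stood at 48.9% and H3K27me3 at 44.1%, 4.77 points apart, where the unmatched levels were 65.3% and 20.2%. Tbx6 had 1 shared call and is left out. In the other 8 genes the difference ran from -4.72 points at Tbx2 (48 calls) to 15.1 at Tbx18 (25 calls). The difference was -0.527 points at Tbx20, with 31.5% and 32.0%, and 0.0177 points at Tbx4, with 62.5% in both. It was 10.1 points at Tbx5 (71.6% against 61.5%) and 8.08 at Tbx15 (68.3% against 60.2%), and both H3K27me3 values lay inside the Wilson intervals of H3K9me3, 61.0 to 80.3% and 59.7 to 75.7%. Tbx1 went the other way: H3K9me3 stood at 20% of 40 calls (10.5 to 34.8%) and H3K27me3 at 9.57%, below that interval, and the 10.4 points between them were more than without matching (20% and 16.3%). The weighting matters here. With the shared CpGs kept and each library weighted by its own calls, as planned, 5 of 8 windows were called lower in H3K27me3 than in H3K9me3, the same 5 as with all CpGs, from -27.1 points at Tbx20 (4.43% against 31.5%, adjusted p = 1.56e-09) to -51.6 at Tbx18 (8.37% against 60%, 2.83e-09) in Fisher's exact test. At Tbx4, that comparison gave 14.7% against 62.5%, where weighting by the H3K9me3 calls gave 62.5% in both. No test was run on the values matched by calls.

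**Figure D4:**
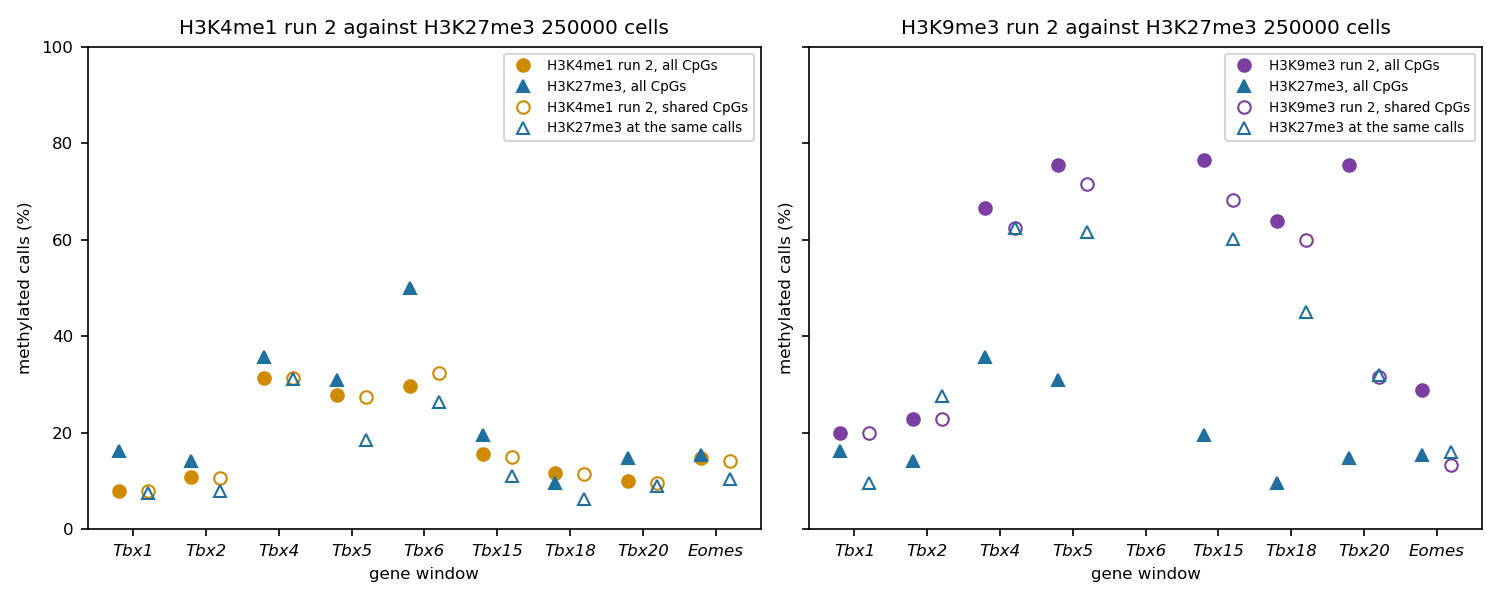
Methylation (percent of calls) of each gene window in H3K4me1 run 2 (left, gold) and H3K9me3 run 2 (right, purple) beside H3K27me3 from 250000 cells (blue): filled symbols use all CpGs, open symbols only shared CpGs, with H3K27me3 weighted by the other library's calls. The open H3K9me3 and H3K27me3 symbols are far closer than the filled ones at Tbx4, Tbx5, Tbx15, Tbx18 and Tbx20, and farther apart at Tbx1. Tbx6 is left out on the right, with 1 shared call.

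The last comparison asked how much of the T-box Polycomb domains is found with fewer cells. A peak overlapped 4 of 9 windows at 4000 cells (Tbx1, Tbx2, Tbx5 and Tbx15), against 2.47% of all gene windows, and 8 of 9 at 20000, 100000 and 250000 cells and in the control, against 29.2%, 40.3%, 42.3% and 46.7%. Among gene windows with a 250000-cell peak, 5.80%, 68.6% and 93.0% kept one at 4000, 20000 and 100000 cells. The 250000-cell library had 268.3 kb of peaks in the T-box windows. Of these bases 2.96% were under a peak at 4000 cells, 62.5% at 20000 and 88.1% at 100000, and 99.8% in the control, where the pooled values of all gene windows were 0.780%, 41.5%, 82.8% and 97.05%. Among the 1346 gene windows with at least the smallest T-box coverage (17.6 kb), the median recovery was 0, 45.1 and 87.7%, and the median of the 8 T-box genes was 0.902, 78.4 and 92.1%. The 4000-cell value rests on Tbx1, with 18.3% of its bases, and was 1.35% without it.

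The genes differed most at 20000 cells. Tbx2 (88.6%), Tbx1 (83.3%), Tbx18 (81.7%), Tbx15 (79.8%) and Tbx20 (77.0%) kept most of their domain, whereas Eomes (50.9%), Tbx5 (48.7%) and Tbx4 (37.4%) kept less. At 100000 cells the range was 79.2% (Tbx4) and 80.9% (Tbx5) to 99.3% (Tbx15) and 100% (Tbx20). Tbx4 and Tbx5 thus had the least recovered domains at both numbers and the highest methylation of the 8. What remained at 4000 cells was 4.65 kb at Tbx1, 1.29 kb at Tbx5, and 1.00 kb each at Tbx2 and Tbx15. Each library is 1 sample, and its depth falls with its cell number, so cell number and sequencing depth cannot be told apart.

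**Figure D5:**
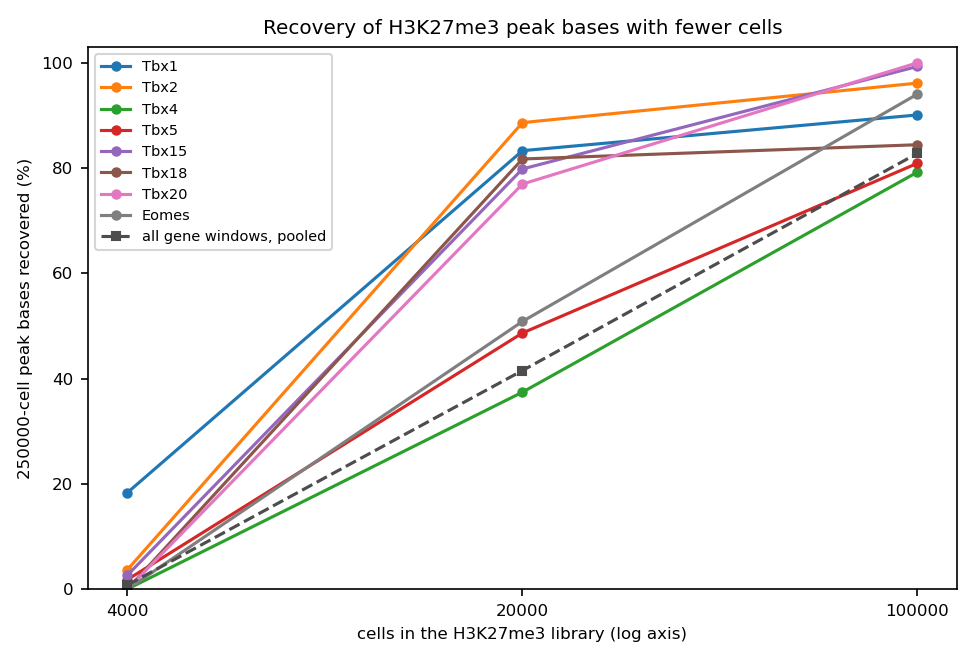
Percentage of the 250000-cell H3K27me3 peak bases in each gene window that lie under a peak of a smaller library, against the number of cells (log axis), with all gene windows pooled as a dashed line. At 20000 cells 7 of the 8 genes lie above the pooled 41.5%, and Tbx4 below it at 37.4%.

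Methylation, in contrast to the peaks, differed by few points between the 2 largest libraries. At 100000 against 250000 cells, 0 of 9 windows were called by Fisher's exact test with the same threshold, 0 had an adjusted p under 0.05 and 1 an unadjusted p under 0.05, against 1.74% of 18484 genes called higher and 2.37% lower. In the 8 genes with a Polycomb domain the differences ran from -0.468 (Tbx20) to 0.92 points (Tbx4). At 20000 cells 1 of 9 was called lower, against 5.64% of 13571 genes, and 0 higher, against 1.81%: Tbx6, by -40.0 points on 20 calls (adjusted p = 0.00808, Fisher's exact test), and neither the gene body (2 calls at 20000 cells) nor the shared CpGs (5 calls) could be tested there. Tbx4 (3.51 points, adjusted p = 0.00497) and Tbx2 (-1.75, 0.00658) had small differences in the same exact test. At 4000 cells 0 of 8 were called, against 4.49% of 5010 genes higher and 7.70% lower, 1 had an adjusted p under 0.05 (Tbx4, 9.10 points, 0.0424) and 2 an unadjusted p under 0.05. At CpGs called in both libraries, each weighted by its own calls, the 4000-cell library was higher in all 8 windows, from 1.10 points at Tbx15 to 16.5 at Tbx4, 6 of them with an adjusted p under 0.05 in Fisher's exact test and 0 called. This direction depends on the weighting. With both weighted by the 4000-cell calls, that library was lower at Tbx1 (-0.213 points) and Tbx15 (-0.422). In the rest of the 8 it was higher, by 2.05 (Tbx20) to 6.02 points (Tbx5), with 4.58 at Tbx4. At matched CpGs and calls the smaller libraries differed from the 250000-cell library by 2.94, 0.0490 and 0.0779 points over the 9 windows at 4000, 20000 and 100000 cells. CpG coverage did change: 17.0%, 61.4%, 78.2% and 82.0% of the T-box CpGs had a call from 4000 to 250000 cells, so the 4000-cell library, with 1907 calls in the 9 windows, could not show differences of a few points in a gene.

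The other 8 genes of the family were less uniform, in a split of the family made with earlier results of these data known. An H3K27me3 peak overlapped 5 of 8, and 3, T (Brachyury), Tbr1 and Tbx21, had at least 25% of their window covered (71.5%, 66.6% and 74.1%), with levels of 24.9%, 24.2% and 24.4% in the 250000-cell library. Tbx3, which supports self-renewal in embryonic stem cells, had no H3K27me3 peak, 26.8 kb of H3K4me1 peaks and a level of 13.2% in H3K4me1 run 2. Of 16 genes of mesoderm and heart development, 15 had an H3K27me3 peak and 13 at least 25% coverage, with a median call density of 16.8 times the genome's and a median level of 20.5%. Msgn1, a gene of presomitic mesoderm like Tbx6, was the one without a peak. For the 8 T-box genes with a domain, density lay in the range of the 15 list genes with a peak. The levels of those 15 ran from 11.2% (Gata6) to 29.7% (Fgf8). Tbx18, at 9.51%, lay under that range, and Tbx4 (35.6%) and Tbx5 (30.9%) lay above it. No difference between the lists was tested.

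By a fixed measure of likeness, the Euclidean distance over 4 percentages (methylation in H3K4me1 run 2, H3K9me3 run 2 and H3K27me3 from 250000 cells, and the share of the window under H3K27me3), the 5 genes nearest to the median of the 9 T-box genes among 13244 genes were Tmem200c, Tcea2, Ntng2, Shh and Pax7, at 7.31 to 8.94 points. The T-box median was 14.7%, 66.7%, 16.3% and 69.2% in that order, and Shh, which encodes a secreted developmental signal, had 8.52%, 61.7%, 12.8% and 68.3%. The genes compared had at least 20 calls in each library, but the T-box median included Tbx6, with 5 calls in H3K9me3 run 2. Over the 8 T-box genes with at least 20 calls the H3K9me3 median was 65.3%.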

How the data were processed

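Methylation and peaks were analysed in 11 CUT&Tag-BS and control samples of mouse E14 embryonic stem cells. The deposited table gives counts: for each of 21908008 CpGs and each of 8 bisulfite libraries, the whole-number count of methylated calls and of all calls, both strands on 1 line, not normalized; 0 of its count columns were left unused. Deposited peak lists hold positions only. Per the submitters' processing notes, the build was mm10 and the tools cutadapt 1.12, Bismark 0.23.0, Bowtie2 2.3.0, HOMER 4.10.3 and bedtools 2.29.2, with no roles given; the treatment of duplicate reads is not given in the sources used here, and retained copies would narrow the intervals. Gene positions came from RefSeq for GRCm38.p6, and 407620 of 407620 CpGs of its promoter sequences fell on table positions. Levels are methylated over all calls in gene body plus 10 kb on both sides, with Wilson 95% intervals; for a level of 0 the text states what 3 methylated counts would amount to. Windows with at least 20 calls in both libraries were compared by two-sided Fisher's exact test, with Benjamini-Hochberg adjustment over all genes tested and a call at adjusted p under 0.05 and 20 points. On simulated calls for H3K27me3 against H3K4me1 (16570 genes, 200 changed by 40 points), 100% of changed genes were recovered, and 1.48% of calls were false. The simulated calls were independent, and an unchanged window had the same level in both libraries. Real calls on 1 fragment are not independent and the libraries read different CpGs, so these rates do not carry over to the data. Peaks overlapped when they shared 1 bp. The text names all 9 genes, extremes and counts of 4 gene lists, genes inside the windows, and the 5 genes of nearest profile. The members and lists were chosen with earlier results of these data known. Alternatives covered flanks, coverage minimums, CpG weighting, thresholds, peak lists and leaving out runs or genes. Python 3.11.15, numpy 2.4.6, pandas 2.3.3, scipy 1.17.1 and matplotlib 3.10.9 were used.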

Additional observations from a re-analysis of the deposited data

Results flagged for a closer look

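In the 9 T-box windows the bisulfite libraries and the controls without bisulfite differed in peak length, with a different sign for different marks. H3K4me1 run 1 had 24.2 kb of peaks and run 2 20.8 kb against 28.6 kb in the control, which is -4.38 and -7.75 kb. H3K27me3 from 250000 cells had 268.3 kb against 283.3 kb, which is -15.0 kb. H3K9me3 run 1 had 2.33 kb and run 2 4.80 kb against 2.08 kb, which is 0.249 and 2.72 kb more. The H3K9me3 lengths come from the Tbx20 flank and, in run 2, also from the edge of the Tbx15 window. The difference between the marks was not tested, since each mark has 1 control and peak lengths also move with depth, whose part in the result was not tested.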

How the results depend on the processing

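Of 176 alternative values, 54 stayed near the reported one and 122 moved beyond it. Near means within 1 SD between runs, within the 95% counting interval for a single library, or within 1.5 times for a count. Among these values only the log2 call densities could change sign, and 0 of them did. The values did not include differences in single windows, some of which turned negative at shared CpGs. The pooled H3K4me1 level (15.8%) was 9.83% at CpGs with at least 5 calls, 11.5% with at least 10, 20.5% as a mean of single-CpG levels, 17.5% with 20 kb flanks and 14.4% inside H3K27me3 peaks. The H3K9me3 level (64.7%) was 60.7% as a mean of single-CpG levels, 60.4% in gene bodies, 70.8% with 20 kb flanks and 33.4% inside H3K27me3 peaks; its coverage minimums could not be computed, as run 1 had no such CpG. The H3K27me3 level at 250000 cells (20.2%) was 19.6% and 18.7% at CpGs with at least 5 and 10 calls, 40.55% as a mean of single-CpG levels, 20.8% with 20 kb flanks, 19.9% inside peaks, and, added after the data were seen, 11.2% and 44.1% at the calls of H3K4me1 run 2 and H3K9me3 run 2.

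The count of windows higher in H3K27me3 than in H3K4me1 (1) was 0 at shared CpGs, in gene bodies and without run 2 of H3K4me1. The count higher in H3K9me3 than in H3K4me1 (5 of 8) was 8 at 10 points, 3 of 4 with at least 50 calls, 1 of 5 at shared CpGs and 3 of 3 without run 2. The count lower in H3K27me3 than in H3K9me3 (5 of 8) was 5 of 8 at shared CpGs, 3 of 4 with at least 50 calls and 3 of 3 without run 2. The 1 window called at 20000 cells, Tbx6, had too few calls to be tested at shared CpGs or in gene bodies, where the count was 0 of 8. H3K4me1 peaks of at least 2000 bp were in 2 windows, H3K9me3 peaks with at least 1000 bp in 1, and in gene bodies in 0. H3K4me1 peaks, in 9 windows, overlapped 8 gene bodies.

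Recovery at 4000, 20000 and 100000 cells (2.96%, 62.5% and 88.1%) was 33.3%, 91.7% and 100% of peaks overlapped by 1 bp, 0%, 50.0% and 91.7% of peaks covered by at least 50%, 3.17%, 64.5% and 86.7% in gene bodies, 2.69%, 58.5% and 84.8% with 20 kb flanks, and 2.80%, 59.2% and 83.6% of the control's bases. The log2 call density of H3K4me1, H3K9me3 and H3K27me3 (1.25, -1.57 and 4.23) was 0.79, -1.77 and 4.33 in gene bodies, 1.08, -1.23 and 3.92 with 20 kb flanks, and 0.54, -2.29 and 3.51 over CpGs covered in any library.

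Leaving out each gene in turn gave 14.7 to 16.8% for the H3K4me1 level, 60.03 to 66.9% for H3K9me3 and 17.9 to 21.5% for H3K27me3. It gave log2 densities of 1.01 to 1.47, -1.94 to -1.42 and 4.13 to 4.30, and recoveries of 1.35 to 3.63%, 59.5 to 68.2% and 86.3 to 90.8%. The lowest 4000-cell recovery was without Tbx1. No paired analysis was possible because the runs of a mark were counted as 1 library, from the match of their single calls and not from the labels, which leaves 1 sample per mark. The cause was not tested for any value that moved, other than by the alternative's own construction. Depth limits the H3K9me3 and 4000-cell values, with 781 and 1907 calls in the 9 windows.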
